A study of Mus musculus with 9 samples.

Results

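The genes described are 10 members of the NOTCH pathway: the receptors Notch1, Notch2, Notch3 and Notch4, the ligands Dll1, Dll3, Jag1 and Jag2, and the target genes Hes1 and Hey1. They were picked by gene symbol, with earlier results of these data known, and are 10 of 35896 genes to which the deposited transcripts could be assigned. All 10 passed the expression filter, which left 14648 genes for testing. The study asked how the Arp2/3 complex, which builds branched actin networks, bears on the exit of mouse embryonic stem cells from self-renewal. Poly-A RNA was sequenced from 9 libraries of E14, a single established mouse embryonic stem cell line with no engineered allele, in 3 groups of 3 replicates.

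All cultures grew on gelatin in medium with fetal bovine serum. Cells called control +LIF2i stayed throughout in the cytokine LIF together with PD0325901, an inhibitor of MEK, and CHIR99021, an inhibitor of glycogen synthase kinase-3β. Cells called control -LIF2i were washed and kept for 72 h without LIF and both inhibitors. The cells called CK666 -LIF2i had the same withdrawal for 72 h with CK666, an inhibitor of the Arp2/3 complex, at 80 µM from the start. CK666 was dissolved in DMSO, and whether DMSO was also given to controls is not stated, so the drug and its solvent cannot be told apart. Withdrawal removed LIF and both inhibitors at the same time, so their parts cannot be told apart either.

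NOTCH receptors are cell-surface proteins that are cut when a ligand on a neighbouring cell binds and pulls on them. The released intracellular part enters the nucleus, joins the DNA-binding protein RBPJ and Mastermind proteins, and switches on target genes, among them repressors of the HES and HEY families. In mouse embryonic stem cells NOTCH signalling is dispensable for self-renewal and is known for its role in the choice of neural fate on differentiation. Messenger RNA levels of these genes do not measure cleavage of the receptors.

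Levels are given as CPM, which are estimated counts scaled to a common library total by the TMM method. A gene was called raised or lowered where edgeR's quasi-likelihood test, with the replicate number as a block, gave a Benjamini-Hochberg adjusted p under 0.05 over all 14648 genes. Values are listed in the order of replicates 1, 2 and 3. Means are given ± SD with n = 3, and log2 fold changes with their standard error (SE). The p-values measure the spread between these cultures. In bulk RNA, fewer cells of a type and less RNA per cell cannot be told apart.

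Library totals ran from 16894327 to 22550952 estimated counts, and 3 counts, taken as the floor of detection, equal 0.133 to 0.178 CPM. The replicate 1 libraries stood apart from replicates 2 and 3 in all 3 groups: 15637 to 17551 genes had a count in them, against 18080 to 18636 in the others. The summed TPM (a length-scaled transcript level with a fixed sum per library) of 8 pluripotency markers, all of them above 0, was 3547 to 4507 in control +LIF2i, 2085 to 2263 in control -LIF2i and 2003 to 2449 in CK666 -LIF2i. Pou5f1 alone gave 1490 to 1866, 1199 to 1543 and 1341 to 1572 TPM of it. The 7 others together gave 1681 to 3017, 719 to 886 and 662 to 877 TPM. Among these, Sox2, Nanog, Esrrb, Zfp42, Klf4 and Tfcp2l1 were lower in control -LIF2i than in control +LIF2i. Utf1 was higher, with means of 491 and 73.3 TPM. Over 6 neural progenitor markers, with Neurog2 at or under 3 counts in every library, the sum was 15.9 to 23.8, 35.6 to 54.0 and 19.9 to 40.1 TPM. For 6 fibroblast markers, with Lum at or under 3 counts, it was 4.71 to 7.32, 24.5 to 31.2 and 14.6 to 24.4 TPM. For 6 primitive endoderm markers, all above 0, it was 5.12 to 8.95, 9.77 to 30.9 and 12.2 to 23.2 TPM. For 6 endothelial markers, with Emcn at 0 in every library, the sums were 2.71 to 5.38, 3.12 to 4.74 and 1.52 to 2.43 TPM. For 6 primitive streak and mesoderm markers, with Msgn1 at or under 3 counts, they were 3.85 to 8.31, 4.51 to 9.70 and 2.30 to 4.82 TPM. For 5 trophectoderm markers they were 3.81 to 9.04, 4.01 to 8.27 and 3.52 to 5.19 TPM. Eomes is in both of the last lists and gave 3.02 to 8.31, 3.07 to 5.93 and 0.954 to 2.60 TPM. Without it the trophectoderm markers together gave 0.595 to 0.978, 0.945 to 2.84 and 1.99 to 2.58 TPM. The streak and mesoderm markers without it gave 0 to 1.36, 1.45 to 4.33 and 1.35 to 2.21 TPM. A single gene held most of several sums: Thy1 gave 3.86 to 6.07, 21.7 to 24.9 and 11.0 to 21.3 TPM of the fibroblast sum, and the 5 other markers together 0.854 to 1.25, 2.68 to 6.35 and 2.62 to 3.63 TPM. The neural, fibroblast and endodermal sums were higher in control -LIF2i than in control +LIF2i without overlap. Without Nes the 5 other neural markers overlapped, at 4.41 to 8.58 TPM with LIF2i and 2.62 to 17.6 without it, and so did the 5 endodermal markers other than Dab2, at 3.96 to 5.36 and 3.06 to 8.73 TPM. The endothelial sum with CK666 was below both control groups, while the 5 endothelial markers other than Tek overlapped, at 0.702 to 1.14 TPM with CK666, 0.584 to 0.773 with LIF2i and 0.395 to 1.62 without it. The part of these markers in the results below was not tested.

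Withdrawal of LIF and both inhibitors raised 4 of the 10 genes and lowered 2, and the other 4 were not called. Notch3, Notch2, Dll3 and Jag2 were raised, and Notch4 and Hes1 were lowered. Of all genes tested, 40.7% were called in this comparison, 21.1% raised and 19.7% lowered, so 6 of 10 is to be read against a background of that size. At an unadjusted p under 0.05 edgeR also had 6 of 10, against 48.7% of all genes. Without replicate 1 it called 7 of 10, against 44.8%. The median log2 fold change of the 10 genes was 0.70, against 0.01 over all genes. The CPM of both groups did not overlap for 7 of the 10, against 40.7% of all genes.

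Promoter stretches are shown for 3 receptors, to set side by side the receptors that were raised on withdrawal, Notch2 and Notch3, and the one that was lowered, Notch4. They come from RefSeq promoter windows of GRCm38.p6, read 5′ to 3′ on the gene's own strand, and end before the first annotated base of the gene. Capitals mark the HES-type N-box, CACNAG on either strand. The stretches lie at chr3:98013288-98013526 (plus strand), chr17:32166891-32167140 (minus strand) and chr17:34564045-34564267 (plus strand).
Notch2: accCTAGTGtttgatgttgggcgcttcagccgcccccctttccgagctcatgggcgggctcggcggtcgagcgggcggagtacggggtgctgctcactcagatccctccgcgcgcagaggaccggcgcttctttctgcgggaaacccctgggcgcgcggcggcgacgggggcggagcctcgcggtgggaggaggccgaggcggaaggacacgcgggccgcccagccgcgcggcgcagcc
Notch3: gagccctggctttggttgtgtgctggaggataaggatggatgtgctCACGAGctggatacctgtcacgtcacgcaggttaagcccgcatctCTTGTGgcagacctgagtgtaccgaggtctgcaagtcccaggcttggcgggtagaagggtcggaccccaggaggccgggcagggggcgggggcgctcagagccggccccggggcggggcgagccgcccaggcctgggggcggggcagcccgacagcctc
Notch4: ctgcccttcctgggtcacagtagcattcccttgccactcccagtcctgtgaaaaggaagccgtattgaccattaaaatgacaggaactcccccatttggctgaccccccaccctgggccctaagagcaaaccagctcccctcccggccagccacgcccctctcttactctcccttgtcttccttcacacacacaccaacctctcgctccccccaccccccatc

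The Notch2 stretch held 1 match, read as CTAGTG, and the Notch3 stretch held 2, read as CACGAG and CTTGTG. The Notch4 stretch held none. The window of Notch1, which was not called on withdrawal, also held a match, read as CACAAG, so 3 of the 9 windows of these genes had one. Of 32851 windows of 250 bases before a start site, 12045 (36.7%) held a match. The RBPJ letters TGGGAA, searched on both strands, were in 0 of 9 windows of the 8 genes with an entry, against 7094 windows (21.6%). A match is a description of letters and not a binding site.

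Notch3, a receptor prominent in progenitor and mural cells, showed the largest rise among the receptors. It stands on chr17:32120820-32166852 on the minus strand, and 6.03% of its exonic bases are shared with Gm17276 on the opposite strand. Its CPM was 77.3, 90.9 and 79.2 in control +LIF2i and 372, 489 and 534 in control -LIF2i. Every library after withdrawal stood above every library before it, with no overlap. The means were 82.5 ± 7.32 and 465 ± 83.6 CPM, a log2 change of 2.45 (SE 0.27, edgeR adjusted p = 0.00015), raised in 3 of 3 pairs. With CK666 the CPM was 262, 466 and 835, which overlapped control -LIF2i and spread more widely, with a mean of 521 ± 290.

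Notch2, which is broadly expressed and acts in many lineages, lies at chr3:98013527-98150361 on the plus strand and shares 5.02% of its exonic bases with Gm42820 on the same strand. Its CPM was 69.8, 40.2 and 44.5 in control +LIF2i, 115, 96.9 and 85.1 in control -LIF2i and 113, 99.4 and 113 with CK666. Both withdrawn groups stood above the self-renewing one without overlap, and the withdrawn groups overlapped each other. Withdrawal raised it by 0.97 on the log2 scale (SE 0.15, edgeR adjusted p = 0.0010), in 3 of 3 pairs.

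Notch4, the receptor best known from blood vessel endothelium, had its highest level in self-renewing cells. It lies at chr17:34564268-34588503 on the plus strand, and no exonic base is shared with another gene. Its CPM was 14.4, 15.5 and 22.9 in control +LIF2i, 3.33, 2.70 and 1.94 in control -LIF2i and 3.22, 2.38 and 1.84 with CK666. No library after withdrawal reached the level of any before it. In edgeR the log2 change was -2.75 (SE 0.33, adjusted p = 0.00022), lowered in 3 of 3 pairs. With a length offset the same change was -0.35 (edgeR adjusted p = 0.59), and on log2(TPM + 1) it was -0.28 (limma adjusted p = 0.59). The adjusted p was under 0.05 in 17 of the 20 alternatives and ran from 8.8e-14 to 0.59.

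The transcripts of Notch4 show where the scales part. The main protein-coding transcript, of 6591 bases, held 286, 297 and 338 counts in control +LIF2i, 44.6, 37.0 and 26.6 in control -LIF2i and 53.0, 38.2 and 24.8 with CK666. The other Notch4 transcripts together held 7.73, 0 and 39.3 counts in control +LIF2i, 24.4, 15.0 and 9.41 in control -LIF2i and 15.0, 3.83 and 8.19 with CK666. In control -LIF2i most of these counts lay on short transcripts and gave 6.89, 1.78 and 1.82 TPM in control -LIF2i against 1.34, 0 and 1.33 in control +LIF2i. The TPM of the main protein-coding transcript alone was 3.56 ± 0.626 with LIF2i, 0.408 ± 0.119 without it and 0.440 ± 0.150 with CK666. On protein-coding transcripts alone the withdrawal change was -3.19 on the log2 scale in edgeR.

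**Figure D1:**
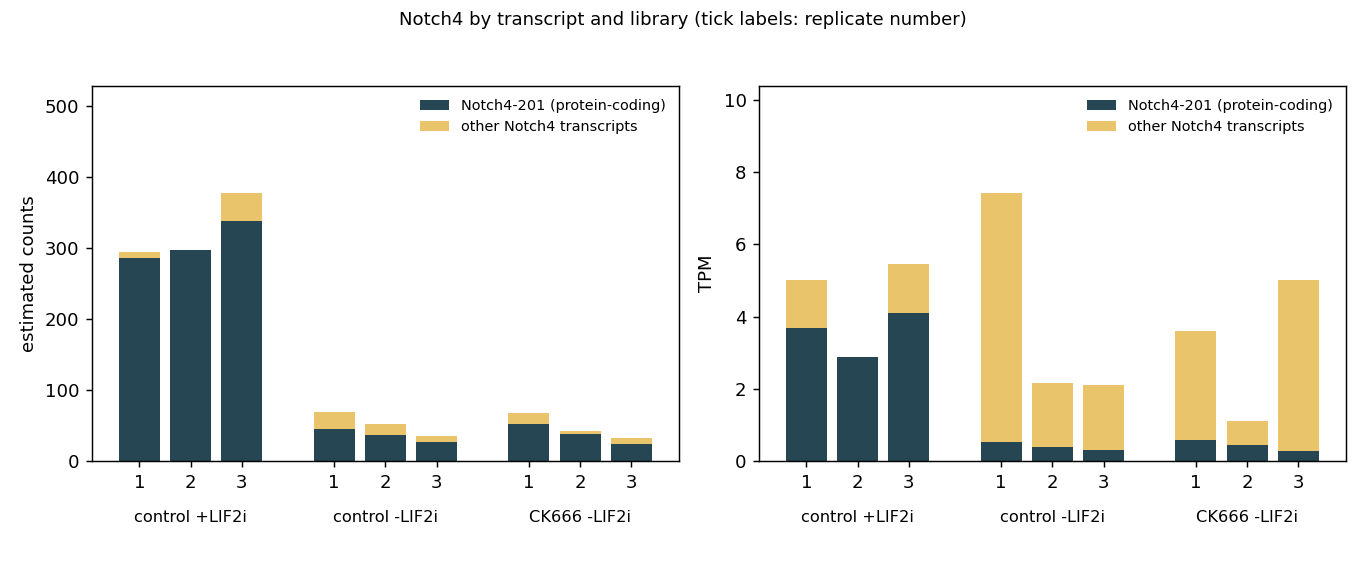
Notch4 by transcript in each library: estimated counts and TPM (vertical axes) of the main protein-coding transcript and of all other Notch4 transcripts, 1 stacked bar per library in replicate order. Counts of the protein-coding transcript were 286 or more with LIF2i and 53.0 or fewer without it.

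Notch1, the receptor most studied in lineage choice, was not called after withdrawal. It lies at chr2:26457903-26516663 on the minus strand, and 9.76% of its exonic bases are shared with 0610009E02Rik and Gm13568 on the opposite strand. Its CPM was 71.8, 84.8 and 84.1 in control +LIF2i, 68.8, 106 and 111 in control -LIF2i and 83.5, 109 and 130 with CK666. In CPM replicate 1 of control -LIF2i was the lowest of all 9 libraries, and the groups overlapped. In TPM the controls did not overlap, at 12.9 to 14.7 with LIF2i and 15.9 to 20.5 without it. The log2 change was 0.22 (SE 0.13, edgeR adjusted p = 0.19), higher in 2 of 3 pairs. Without replicate 1 it was 0.39 (edgeR adjusted p = 0.021), and without that replicate of control +LIF2i alone 0.36 (edgeR adjusted p = 0.031). Over the 20 alternatives the adjusted p ran from 0.021 to 0.63.

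Within the receptors the balance moved toward Notch3. Taking the main protein-coding transcript of each receptor, their summed TPM was 36.7 ± 6.81 in control +LIF2i, 110 ± 6.64 in control -LIF2i and 121 ± 50.6 with CK666. Notch3 held 37.2% to 42.8% of that sum in control +LIF2i, 71.7% to 77.1% in control -LIF2i and 62.6% to 81.0% with CK666. These shares are a description, and depend on each other because they add up to the whole. The mean share of Notch1 was 32.3%, 12.7% and 13.9% in the same order, and that of Notch4 was 9.84%, 0.375% and 0.439%.

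The ligands, summed in the same way, were at 16.1 ± 7.45 TPM in control +LIF2i, 48.4 ± 7.07 in control -LIF2i and 63.2 ± 5.59 with CK666. Jag2 was the largest part in every library. Its mean share was 38.7%, 54.0% and 51.0% in that order, and that of Jag1 was 34.0%, 12.4% and 6.60%. The share of Dll1 was 3.72% to 28.0% in control +LIF2i, 11.0% to 22.9% in control -LIF2i and 26.7% to 41.2% with CK666.

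**Figure D2:**
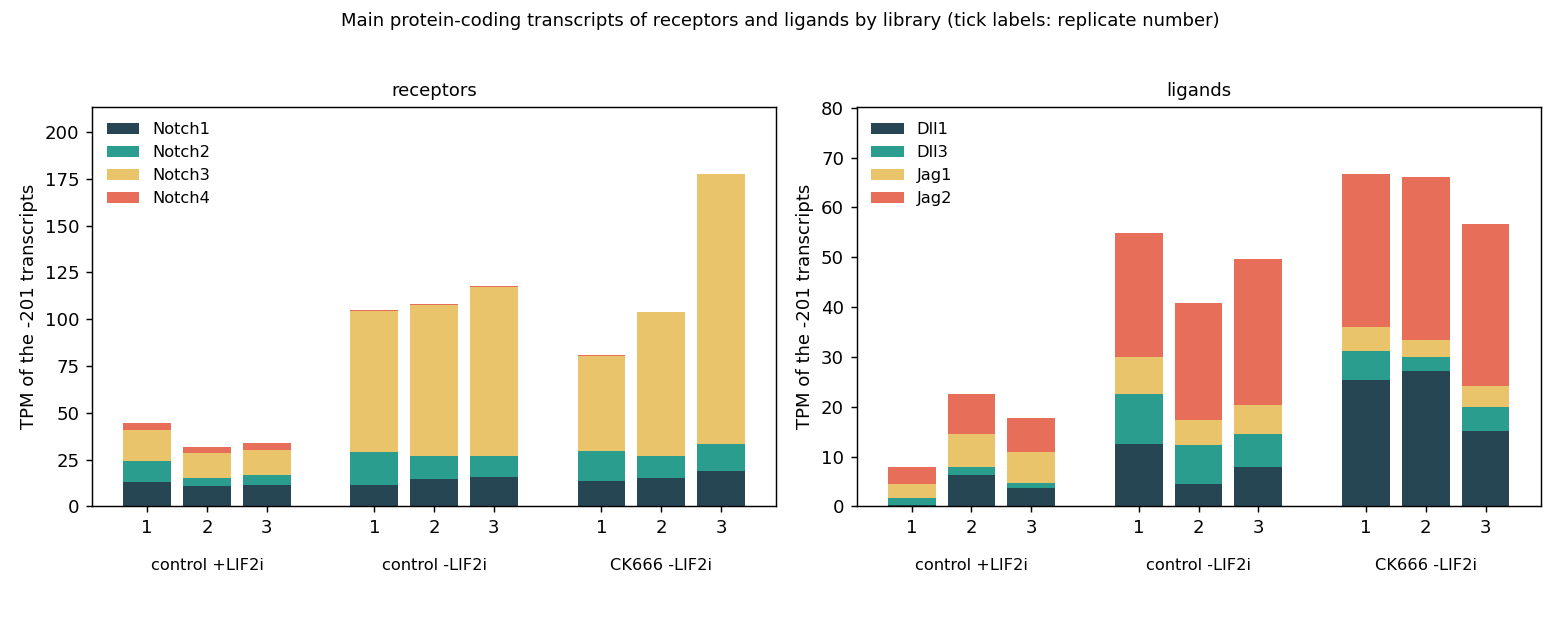
TPM of the main protein-coding transcript of each receptor (left) and ligand (right), stacked, with 1 bar per library and replicate numbers on the horizontal axis. Notch3 held at most 42.8% of the receptor sum with LIF2i and at least 62.6% without it.

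Jag2 and Dll3 were the called ligands. Jag2 is a ligand with a cysteine-rich domain that activates receptors on neighbouring cells, and it lies at chr12:112907819-112929776 on the minus strand. Its CPM was 10.2, 34.5 and 28.2 in control +LIF2i, 78.4, 92.0 and 115 in control -LIF2i and 106, 129 and 122 with CK666. All withdrawn libraries exceeded all self-renewing ones, and replicate 1 was the lowest library with LIF2i. Withdrawal raised Jag2 by 2.07 on the log2 scale (SE 0.27, edgeR adjusted p = 0.00044), in 3 of 3 pairs.

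Dll3, a divergent ligand that acts mostly inside the cell and is known from the segmentation clock of the somites, lies at chr7:28293553-28302238 on the minus strand. Its CPM was 1.97, 3.08 and 1.70 in control +LIF2i, 14.9, 14.5 and 11.8 in control -LIF2i and 9.38, 5.27 and 8.49 with CK666. The 3 groups did not overlap, with control -LIF2i highest and control +LIF2i lowest. Withdrawal raised it by 2.60 on the log2 scale (SE 0.33, edgeR adjusted p = 0.00028), in 3 of 3 pairs.

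Dll1, a canonical activating ligand, lies at chr17:15367354-15376872 on the minus strand, and 20.5% of its exonic bases are shared with A930024N18Rik on the opposite strand. Its CPM was 0.590, 19.0 and 10.8 in control +LIF2i, 26.6, 11.9 and 21.7 in control -LIF2i and 57.2, 73.3 and 38.5 with CK666. Replicate 1 of control +LIF2i held 12 counts, against 363 and 177 in the other 2, so the spread in that group was wide. The log2 change on withdrawal was 1.26 (SE 0.98, 95% interval -1.12 to 3.65, edgeR adjusted p = 0.35), higher in 2 of 3 pairs. It was 0.28 without replicate 1, and ran from 0.28 to 2.37 with libraries left out.

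Jag1, the partner of Jag2 in the Jagged family, lies at chr2:137081456-137116644 on the minus strand. Its CPM was 10.3, 30.8 and 27.8 in control +LIF2i, 25.0, 21.6 and 25.3 in control -LIF2i and 17.6, 14.2 and 16.6 with CK666. Replicate 1 was far below the other libraries with LIF2i, and the controls overlapped. The log2 change on withdrawal was 0.12 (SE 0.33, edgeR adjusted p = 0.79), and it was -0.30 without replicate 1.

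Hes1, a transcriptional repressor and the best known NOTCH target, was lowered by withdrawal. It lies at chr16:30064384-30067796 on the plus strand. Its CPM was 42.6, 57.0 and 42.0 in control +LIF2i, 25.8, 19.9 and 28.1 in control -LIF2i and 32.1, 34.0 and 41.4 with CK666. In CPM the cultures with CK666 stood between the others without overlap, by a narrow margin on the side of control +LIF2i. In TPM they overlapped control +LIF2i, at 42.5 to 56.9 against 52.1 to 61.3. The log2 change was -0.94 (SE 0.19, edgeR adjusted p = 0.0037), lowered in 3 of 3 pairs.

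Hey1, a HES-related repressor, lies at chr3:8663359-8667256 on the minus strand and was low throughout. Its CPM was 3.78, 4.76 and 5.35 in control +LIF2i, 7.19, 5.76 and 5.45 in control -LIF2i and 4.64, 4.42 and 7.60 with CK666. The controls did not overlap, by a narrow margin. The log2 change on withdrawal was 0.43 (SE 0.30, edgeR adjusted p = 0.28), higher in 3 of 3 pairs.

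**Figure D3:**
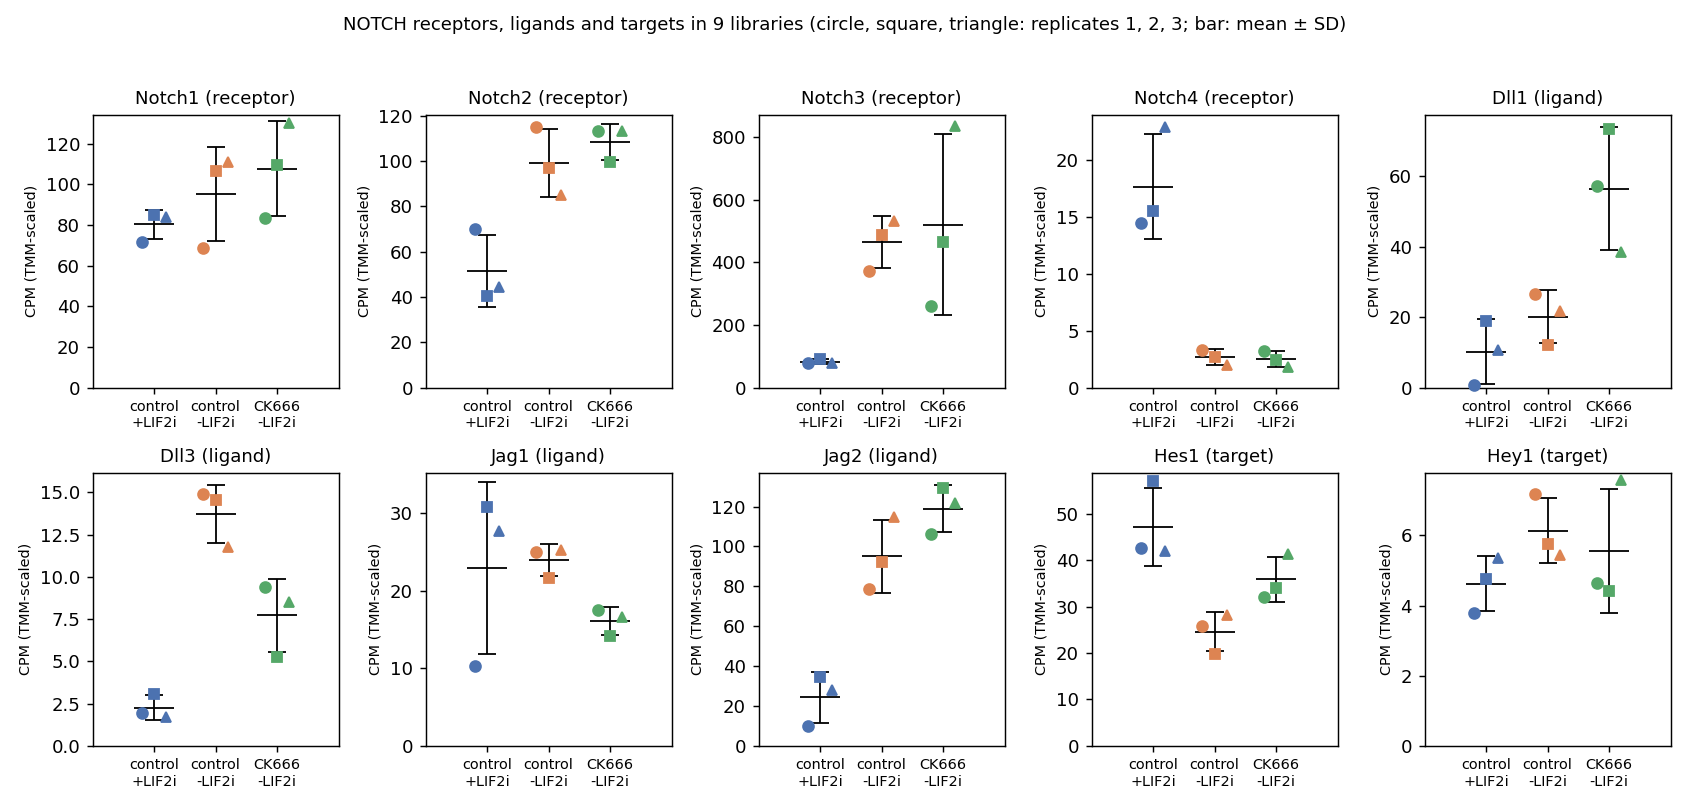
CPM (vertical axes, linear, starting at 0) of the 10 genes in 3 groups, 1 point per library with the replicate given by its shape, and bars for the mean ± SD (n = 3). Notch2, Notch3, Jag2 and Dll3 stood higher in all 6 withdrawn libraries than in the 3 with LIF2i, and Notch4 stood lower.

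CK666 during withdrawal, compared with withdrawal alone, left all 10 genes uncalled. In edgeR 0 of 10 passed, against 2.05% of all genes (1.15% raised and 0.894% lowered). DESeq2 also called 0, against 7.78% of all genes. At an unadjusted p under 0.05 edgeR had 2, Hes1 and Dll3, against 19.7% of all genes. The CPM of these groups did not overlap for 4 of 10, namely Dll1, Dll3, Jag1 and Hes1, against 16.5% of all genes. The median log2 change was 0.11, against 0.02 over all genes.

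For Hes1 the mean was 35.9 ± 4.92 CPM with CK666 against 24.6 ± 4.24 without it, a log2 difference of 0.54 (95% interval 0.12 to 0.96, edgeR adjusted p = 0.15), higher in 3 of 3 pairs. The mean of Dll3 was 7.71 ± 2.17 against 13.7 ± 1.72 CPM, a log2 difference of -0.82 (95% interval -1.50 to -0.14, edgeR adjusted p = 0.17), lower in 3 of 3 pairs. This difference ran from -1.05 to -0.48 with libraries left out. Dll1 had the largest difference of the 10. Its mean was 56.4 ± 17.4 against 20.1 ± 7.48 CPM, a log2 difference of 1.37 (95% interval -0.80 to 3.55, edgeR adjusted p = 0.46), higher in 3 of 3 pairs, and it ran from 0.81 to 2.20 with libraries left out. Jag1 was 16.1 ± 1.77 against 24.0 ± 2.06 CPM, a log2 difference of -0.57 (95% interval -1.30 to 0.17, edgeR adjusted p = 0.38), lower in 3 of 3 pairs. Without replicate 1, when 1 of the 10 genes was called, the difference of Jag1 was -0.62 (edgeR adjusted p = 0.046), in a comparison where 12.3% of all genes were then called. With libraries left out the difference of Jag1 ran from -0.90 to -0.32. The adjusted p of Jag1 ran from 0.027 to 0.79 over the 20 alternatives.

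The remaining 6 genes overlapped between these groups. Among the receptors the log2 difference was 0.18 for Notch1 (95% interval -0.10 to 0.46), 0.14 for Notch2 (95% interval -0.19 to 0.48), 0.07 for Notch3 (95% interval -0.50 to 0.64) and -0.10 for Notch4 (95% interval -0.84 to 0.64). It was 0.34 for Jag2 (95% interval -0.24 to 0.92) and -0.19 for Hey1 (95% interval -0.85 to 0.48). The edgeR adjusted p of these 6 lay between 0.46 and 0.91.

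CK666-treated cells were also set against self-renewing cells. This comparison shares libraries with both others, so its values stand beside theirs and are not independent of them. In this comparison 6 of 10 genes were called, against 36.9% of all genes (19.8% raised and 17.1% lowered). At an unadjusted p under 0.05 edgeR had 7, against 46.6% of all genes, and without replicate 1 it called 8, against 41.6%. Notch3 (log2 fold change 2.53, SE 0.27, edgeR adjusted p = 0.00016), Jag2 (2.41, SE 0.28, 0.00024), Dll3 (1.78, SE 0.33, 0.0026), Notch2 (1.11, SE 0.15, 0.00055) and Notch1 (0.40, SE 0.13, 0.032) were raised, and Notch4 was lowered (-2.85, SE 0.33, 0.00022). The Notch4 call was lost with the length offset (-0.67, edgeR adjusted p = 0.30) and on log2(TPM + 1) and log2(TPM + 0.1) (-0.46 and -0.63, limma adjusted p = 0.38 and 0.35), the 3 of 20 alternatives in which it was not called. Without the replicate block Notch1 was not called (edgeR adjusted p = 0.23), and its groups overlapped in CPM. In TPM they did not overlap, at 12.9 to 14.7 with LIF2i and 18.5 to 21.3 with CK666. Notch1 was called in 9 of the 20 alternatives, with an adjusted p from 0.0054 to 0.31. Dll3 without replicate 3 was at 1.52 (edgeR adjusted p = 0.051), the 1 alternative of 20 in which it was not called. For Hes1, lowered by withdrawal, the value against self-renewal was -0.40 (95% interval -0.82 to 0.02, edgeR adjusted p = 0.12). Dll1 had a log2 change of 2.64 (95% interval 0.30 to 4.98, edgeR adjusted p = 0.078), and without replicate 1 it was called, at 1.91 (edgeR adjusted p = 0.029), with a range of 0.024 to 0.31 over the 20 alternatives. For Jag1 the value was -0.44 (SE 0.33, edgeR adjusted p = 0.33), and -0.93 without replicate 1 (edgeR adjusted p = 0.0024, range 0.0016 to 0.92). Hey1 was at 0.24 (SE 0.30, edgeR adjusted p = 0.56). The CPM did not overlap between these groups for 7 of the 10 genes, against 37.3% of all genes, and the median log2 change was 0.76, against 0.01.

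**Figure D4:**
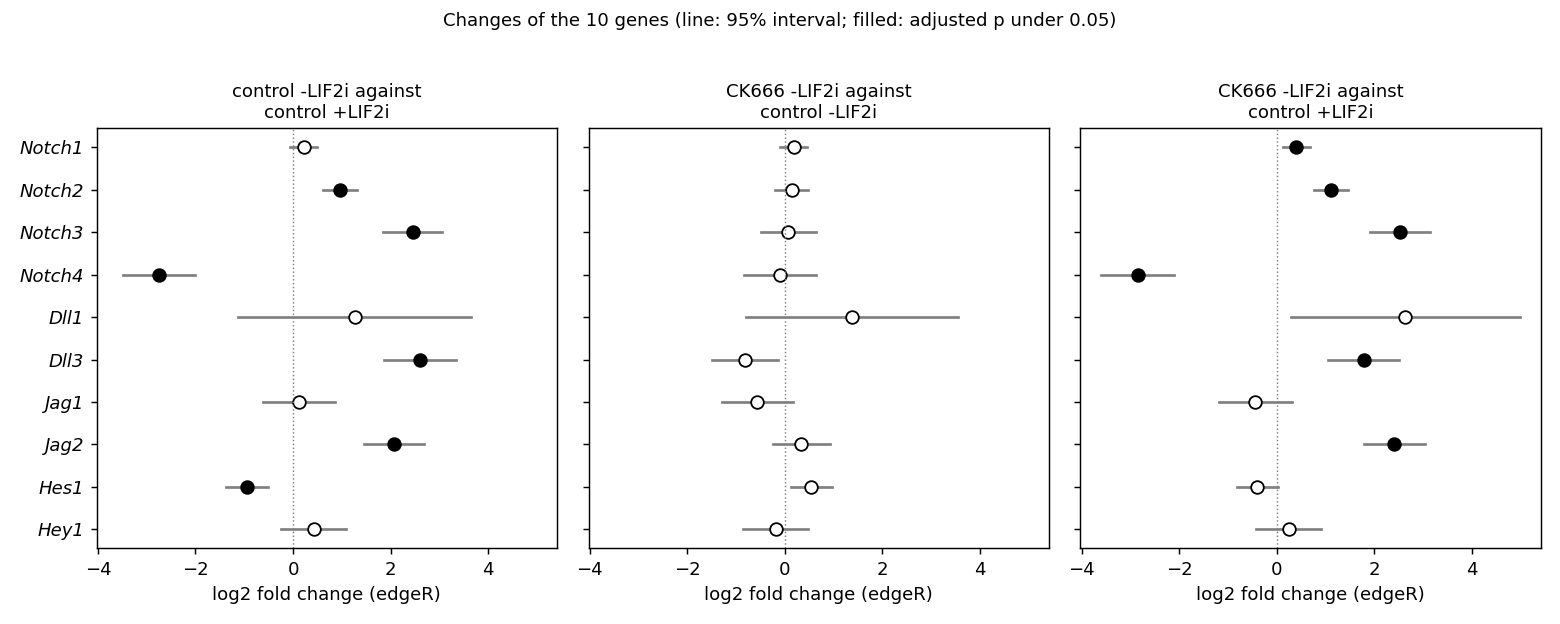
Log2 fold changes of the 10 genes (horizontal axis) in the 3 comparisons, points with 95% intervals, filled where the edgeR adjusted p was under 0.05. Notch3, Jag2, Dll3, Notch2 and Notch4 were called both after withdrawal and with CK666 against self-renewal, and none was called for CK666 against withdrawal alone.

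TPM, which allows levels of different genes to be set side by side, ordered the genes as follows. In control +LIF2i Hes1 was highest at 58.2 ± 5.25 TPM, with no overlap with Notch3 at 16.2 ± 2.40. From Notch3 down to Hey1 at 2.87 ± 0.273 each neighbour in the order overlapped the next, and Dll3 was lowest at 1.36 ± 0.202. In control -LIF2i Notch3 was highest at 84.4 ± 8.11 TPM, apart from Jag2 at 38.3 ± 8.98, which overlapped Hes1 at 35.2 ± 6.23. With CK666 Notch3 was at 92.9 ± 51.8 TPM and overlapped Hes1 at 49.4 ± 7.25. Jag2 followed at 48.5 ± 5.14 and Dll1 at 26.9 ± 8.57. Notch4 had the lowest mean of the 10 in both withdrawn groups at 3.90 ± 3.04 and 3.24 ± 1.98 TPM, and overlapped Hey1, the next gene in the order. These values came mostly from transcripts other than the main protein-coding one.

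A list of 53 other NOTCH pathway genes was read in the same fit, of which 50 were tested. After withdrawal 12 were raised and 8 lowered, 40% called, which is near the 40.7% of all genes. The count was 10 without the replicate block, where 24.0% of all genes were called, 10 without replicate 3 (20.7%), 11 without replicate 2 (25.3%) and 22 without replicate 1 (44.8%). Of the 20 genes called, 7 were called in all 20 alternatives: Dlk1, Poglut1, Dtx2, Dtx4, Maml3, Tle3 and Hes6. No share of all genes called in all 20 alternatives stands beside this count. Among the glycosylation enzymes that modify the receptors, 0 of 5 were raised and 2 were lowered, Poglut1, called in all 20 alternatives, and Pofut1, called in 7. Of 10 genes for receptor cleavage 1 was raised, Furin (called in 11 of 20 alternatives), and 2 were lowered, Adam10 (19) and Ncstn (12). Trafficking and ubiquitin ligase genes had 3 raised and 2 lowered of 13, the nuclear complex and its corepressors 4 raised and 1 lowered of 13, and the other targets and HES and HEY relatives 3 raised and 0 lowered of 6.

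Maml3, a Mastermind coactivator, had the largest change at 4.73 on the log2 scale (SE 0.63, edgeR adjusted p = 0.00044), with CPM of 0.0983, 0.993 and 0.304 with LIF2i and 17.1, 8.51 and 12.8 without it. The lowest of these libraries held 2.15 counts, under the floor, and the size of the change depended on single libraries: it was 3.94 without replicate 1 and 6.27 without replicate 2, and 1.59 in limma on log2(TPM + 1), called in all 20 alternatives. Dtx4, a ubiquitin ligase of the Deltex family, rose by 3.66 (SE 0.42, edgeR adjusted p = 0.00023), and Hes6, a HES relative, by 2.28 (SE 0.21, edgeR adjusted p = 4.7e-05). Hes7, an oscillating repressor of the somite clock, rose by 2.85 (SE 0.79, edgeR adjusted p = 0.017), from 0, 0.418 and 0.425 CPM to 1.30, 1.82 and 2.32, and was called in 14 of 20 alternatives, not without the block (2.68, edgeR adjusted p = 0.053) or without replicate 2 or 3 (edgeR adjusted p = 0.067 and 0.12). Dlk1, a ligand lacking the DSL domain, rose by 3.14 (SE 0.39, edgeR adjusted p = 0.00028). It held 12, 3.5 and 5.50 counts with LIF2i, and its change was 1.41 at the lowest over the 20 alternatives. Dner, another atypical ligand, fell by 2.10 (SE 0.46, edgeR adjusted p = 0.0059) and was not called without replicate 2 (-1.45, edgeR adjusted p = 0.12). Rbpj, the DNA-binding partner, was at 327 ± 97.1 CPM with LIF2i and 368 ± 38.8 without it, a log2 difference of 0.20 (edgeR adjusted p = 0.44), and without replicate 1 it was called at 0.55 (edgeR adjusted p = 0.0053). Hes5, a NOTCH target of neural progenitors, had at most 14 counts in any library, with a log2 difference of 1.32 (SE 0.93, edgeR adjusted p = 0.29) that ran from 0.61 to 2.07 with libraries left out. It was called on log2(TPM + 1) and log2(TPM + 0.1) (1.11 and 2.44, limma adjusted p = 0.025 and 0.040). Nrarp, a NOTCH-induced feedback gene, was raised by 1.01 (SE 0.34, edgeR adjusted p = 0.039) but called in 11 of 20 alternatives, not without the block (0.90, edgeR adjusted p = 0.26) or without replicate 3 (0.98, edgeR adjusted p = 0.21). Its groups overlapped, and 79.4% of its exonic bases are shared with Gm38287 on the opposite strand. The part shared with other genes was 31.8% for Hes5, 12.9% for Hes7, 5.56% for Dll4 and 1.61% for Dner, and counting by strand is not stated.

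With CK666 against withdrawal alone, Tle3 was the 1 gene called of 50, against 2.05% of all genes. The count was 0 without the replicate block, where edgeR called 0 of all genes (1251 at an unadjusted p under 0.05), 5 with DESeq2 (7.78% of all genes), 4 with no filter on low counts (2.50%) and 7 without replicate 1 (12.3%), and 0 without replicate 2 or 3. Tle3, a corepressor of the Groucho family, was at 100, 107 and 117 CPM in control -LIF2i and 129, 207 and 191 with CK666, a log2 difference of 0.67 (SE 0.14, edgeR adjusted p = 0.043). It was called in 6 of 20 alternatives and not without the block (edgeR adjusted p = 0.37). Dll4, the vascular ligand, was at 0.0482, 0.675 and 0.648 CPM in control -LIF2i and 1.90, 6.68 and 1.95 with CK666. The groups did not overlap, and the log2 difference was 2.86 (SE 0.80, edgeR adjusted p = 0.092). It was called in 4 of 20 alternatives, with DESeq2 (adjusted p = 0.011) and without replicate 1 (2.50, edgeR adjusted p = 0.019) among them, and the adjusted p ran from 0.011 to 0.61. The control library at 0.0482 held 1 count. Rbpj differed by 0.35 (SE 0.19, edgeR adjusted p = 0.34), Nrarp by 0.45 (SE 0.33, edgeR adjusted p = 0.49) and Hes5 by -2.31 (SE 1.01, edgeR adjusted p = 0.25).

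Against self-renewing cells, CK666-treated cells had 11 of the 50 genes raised and 6 lowered, against 36.9% of all genes called. The count was 7 without the replicate block, where 20.2% of all genes were called, 8 without replicate 3 (16.1%), 9 without replicate 2 (22.5%) and 20 without replicate 1 (41.6%). Of the 17 genes called, 4 were called in all 20 alternatives: Dlk1, Poglut1, Dtx4 and Maml3. This count too has no share of all genes beside it. Maml3 was raised by 5.13 (SE 0.63, edgeR adjusted p = 0.00033), with 4.53 to 6.65 when libraries were left out and 1.77 on log2(TPM + 1). Dtx4 was raised by 3.93 (SE 0.42, edgeR adjusted p = 0.00019) and Dlk1 by 3.71 (SE 0.39, edgeR adjusted p = 0.00013). For Dlk1 the lowest value over the 20 alternatives was 1.73. Dll4, at 0.491, 0.261 and 0.182 CPM in control +LIF2i, was raised by 3.16 (SE 0.83, edgeR adjusted p = 0.016), was called in 13 of 20 alternatives, and not without replicate 2 (2.39, edgeR adjusted p = 0.18) or replicate 3 (3.05, edgeR adjusted p = 0.087). Hes2, another HES relative with at most 4 counts in a library with LIF2i, was raised by 3.29 (SE 1.08, edgeR adjusted p = 0.039) and called in 11 of 20 alternatives, not without replicate 2 (2.71, edgeR adjusted p = 0.23). Its change ran from 2.34 to 5.35 with libraries left out. Dner fell by 2.00 (SE 0.46, edgeR adjusted p = 0.0082), and was called in 15 of 20 alternatives, not without replicate 2 (-1.53, edgeR adjusted p = 0.11). Rbpj was raised by 0.55 (SE 0.19, edgeR adjusted p = 0.047) but called in 5 of 20 alternatives, with an adjusted p up to 0.33 and 0.15 without the block, and its groups overlapped. Nrarp was raised by 1.46 (SE 0.34, edgeR adjusted p = 0.0092), called in 18 of 20 alternatives and not without the block (edgeR adjusted p = 0.12), and Hes5 was at -0.98 (SE 1.05, edgeR adjusted p = 0.50).

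The genes whose log2 CPM followed these patterns most closely over all 9 libraries were listed for 1 gene of each role, the one with the highest mean TPM over the 9 libraries. For Notch3 they were Arhgef16 (Pearson r 0.990) and Prmt2 (0.988). For Jag2 they were Stim1 (0.992), Nabp2 (0.988) and Gmds (0.987). For Hes1 they were Vhl (0.957), Agpat3 (0.949) and Tbl1xr1 (0.942). The 9 libraries share 3 groups and their replicate numbers, so these values describe likeness and carry no test.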

How the data were processed

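RNA was extracted from 9 cultures, poly-A selected and sequenced, per the labels' protocols. Every library has its own deposited table of 119414 transcripts. Its estimated counts are fractional where the authors' quantification shared a read among transcripts, and its TPM values were divided by effective length by the authors and set to a fixed sum. The deposited effective length is another column, used only for a length offset. The submitters' processing notes name FastQC, cutadapt 1.8.1, kallisto and sleuth and the builds mm10 and GRCh38, without their roles. The kallisto version, transcript release and use of strand are not given in the sources used here.

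GENCODE M21 (GRCm38) gave the gene of each transcript through its unversioned identifier and matched 116640 (97.7%). The 2774 others held 0.895% to 1.08% of a library's counts and were left out. Counts were summed per gene, rounded, and tested with edgeR 4.0.16 in R 4.3.3 (robust quasi-likelihood test, TMM, 14648 genes, 9 libraries in one fit, leaving 4 residual degrees of freedom). Replicate entered as a block because the study's design text calls the replicates paired. The deviations of same-numbered libraries from their group means correlated at 0.30 to 0.65 (median 0.41), against -0.53 to -0.35 for different numbers where one was replicate 1 and 0.21 to 0.29 between replicates 2 and 3. Alternatives used DESeq2 1.42.0, limma 3.58.1 on log2(TPM + 1) or log2(TPM + 0.1), other scaling, filters and leave-outs, 20 in all. The floor of 3 counts covers counting error only, and the 95% intervals of fold changes come from the fit. Named pathway genes are Dll4, Rbpj, Hes5 and Nrarp in every comparison, and the 6 called genes with the largest change in one direction in 3 of 3 pairs. The 10 genes, the pathway list and the marker lists were chosen with earlier results of these data known. One gene that met the rule for likeness is not reported here.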

Additional observations from a re-analysis of the deposited data

How the results depend on the processing

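Each comparison was refitted under 20 alternatives. Without the replicate block 3509 genes were called after withdrawal against 5967, 0 for CK666 against 300 (1251 at an unadjusted p under 0.05 in edgeR), and 2966 for CK666 against self-renewal against 5408. For CK666 the count was 1140 with DESeq2, 565 with no filter on low counts, 148 with the length offset, 198 on protein-coding transcripts, and 23 and 25 in limma on log2(TPM + 1) and log2(TPM + 0.1). The raised share of these calls was 56.3% in edgeR and 43.5% and 44.0% in those limma fits. Leaving out libraries gave 3099 to 6588 genes for withdrawal, 0 to 1811 for CK666 and 2413 to 6129 against self-renewal. The members called were then 6 to 7, 0 to 1 and 4 to 8 of 10. Of all genes tested in those fits, 20.7% to 44.8%, 0% to 12.3% and 16.1% to 41.6% were called. The cause was not tested.

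Directions turned only for values that were not called. For CK666 Notch3 was -0.00350 and -0.00499 in the limma fits, and Notch4 was 0.10 on protein-coding transcripts. With libraries left out, withdrawal values ran from -0.32 to 0.53 for Jag1 and -0.61 to 1.64 for Dll4. CK666 values ran from -0.34 to 0.35 for Notch3, -0.34 to 0.0947 for Notch4 and -0.51 to 0.0539 for Hey1, and against self-renewal Hey1 ran from -0.0118 to 0.39. Dll4, Dlk1, Maml3, Hes2, Hes5 and Hes7 had few counts in at least 1 group, and replicate 1 of control +LIF2i stood far from the other libraries of its group for Dll1 and Jag1.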
